A study of Mus musculus with 166 samples.

Results

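MicroRNA levels in the cerebellum of Q175 mice were compared with those of control mice at 10 months of age, to ask which microRNAs differ in an animal with a long Htt CAG repeat. The comparison took 24 of the 166 libraries of the series, chosen by the labels of line and age alone: all 8 libraries of heterozygous Q175 mice against all 16 libraries of heterozygous Q20 mice and wild-type (WT) mice, 8 of each. All mice were on a C57BL/6 background. The p-values of this comparison measure the spread between these libraries. Q175 and Q20 mice carry a normal mouse Htt allele and a knock-in allele with a human HTT exon 1, whose CAG repeat has a nominal length of 175 units in Q175 and 20 units in Q20. The knock-in allele is expressed from the Htt locus itself, so that no cell type is singled out. WT mice were littermates of the Q20 line. The Q175 line arose by spontaneous expansion of the repeat in another knock-in model, Q140, and its own WT littermates were not analysed here. By the labels' housing field, Q175 mice lived with other Q175 mice, and Q20 and WT mice with one another. The paper's methods describe cages that held both heterozygous and WT mice, and how this goes with the labels is not given. Repeat length, line of origin and, by the labels, housing therefore cannot be told apart. The Q175 group held 4 females and 4 males, and the controls held 9 females and 7 males.

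MicroRNAs are short RNAs cut from hairpin precursors, which bind messenger RNAs mainly through the seed near their 5′ end and lower the output of those messengers. Many are made together from one long precursor, so that neighbours on a chromosome are often expressed together. The cerebellum is dominated by granule neurons, and its microRNAs are largely those of neurons and, at lower levels, of glia, vessels and choroid plexus.

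The microRNAs on which the results turn are given as their mature forms (RefSeq, GRCm38.p6), 5′ to 3′, with the seed, bases 2 to 8, in capitals. The reads were counted per hairpin, so that the arms of a hairpin were not separated and the arm that is usually the more abundant is shown. The first set rose or fell in every Q175 library relative to every control library, or nearly so, and is shown because it carries the clearest differences. The last 2 of the set share their seed.
mmu-miR-137-3p: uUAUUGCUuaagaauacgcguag
mmu-miR-335-5p: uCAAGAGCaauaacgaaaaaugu
mmu-miR-488-3p: uUGAAAGGcuguuucuugguc
mmu-miR-127-3p: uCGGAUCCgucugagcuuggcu
mmu-miR-154-5p: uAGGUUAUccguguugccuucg
mmu-miR-496a-3p: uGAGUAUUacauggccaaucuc
mmu-miR-344-3p: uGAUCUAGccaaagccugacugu
mmu-miR-425-5p: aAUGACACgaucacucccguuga
mmu-miR-212-3p: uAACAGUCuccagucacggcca
mmu-miR-132-3p: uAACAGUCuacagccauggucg

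The second set consists of pairs that share a seed but moved in opposite directions.
mmu-miR-130a-3p: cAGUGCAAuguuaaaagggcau
mmu-miR-130b-3p: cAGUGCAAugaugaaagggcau
mmu-miR-329-3p: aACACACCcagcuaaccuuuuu
mmu-miR-362-3p: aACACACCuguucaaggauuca
mmu-let-7c-5p: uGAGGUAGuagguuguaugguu
mmu-let-7i-5p: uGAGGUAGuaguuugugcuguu

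Total counts ranged from 4024192 to 4893827 in the 8 Q175 libraries and from 3844245 to 5429279 in the 16 control libraries. Levels are given as CPM, counts scaled to a common library total after TMM, which corrects library sizes for shifts in composition. A total of 389 microRNAs had enough counts for the test. Mir124a-1, Mir128-1 and Mir9-2, which mark neurons, averaged 9543, 9856 and 44240 CPM in Q175 libraries and 10170, 9100 and 40370 CPM in control libraries, so that neuronal markers were abundant in both groups. No library fell below the study's limit of -5 for standardized connectivity (Z.k, how closely a library resembles the others). Library F3 of Q20 lay just above it at -4.95, stood apart from the rest, and was kept. The L field of the library names took the values 4, 5 and 6. All 5 libraries with L4 were controls, while Q175 held 5 libraries of L5 and 3 of L6, so that results are also given with a term for this field and within the 12 libraries of L5.

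At a false discovery rate (FDR, Benjamini-Hochberg adjusted p) under 0.05 by the quasi-likelihood test of edgeR, 106 of 389 microRNAs were called, which is 27.2%. Of these, 61 were higher (15.7%) and 45 lower (11.6%) in Q175. The differences were small: the median size among the called microRNAs was 0.28 on the log2 scale, against a median over all tested microRNAs of -0.02, and the called microRNAs whose size exceeded 0.5 numbered 8. For 18 microRNAs (4.63%) the 8 Q175 libraries did not overlap the 16 control libraries, with 15 above (3.86%) and 3 below (0.771%). The split of the calls depended on the scaling. With TMM factors taken from the microRNAs outside the Dlk1-Dio3 domain, 69 were higher and 32 lower. Of 75 microRNAs with a mean above 1000 CPM, 17 were called higher and 18 lower. Without Q20 library F3, 59 were higher and 46 lower, and 102 of the 106 remained. Without WT library F2 the split turned to 51 higher and 55 lower. With the L field as a term 47 were higher and 41 lower, and within L5 alone 32 and 25. Since RNA came from whole cerebellum, a change in the number of cells of a type and a change in RNA per cell cannot be told apart.

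**Figure D1:**
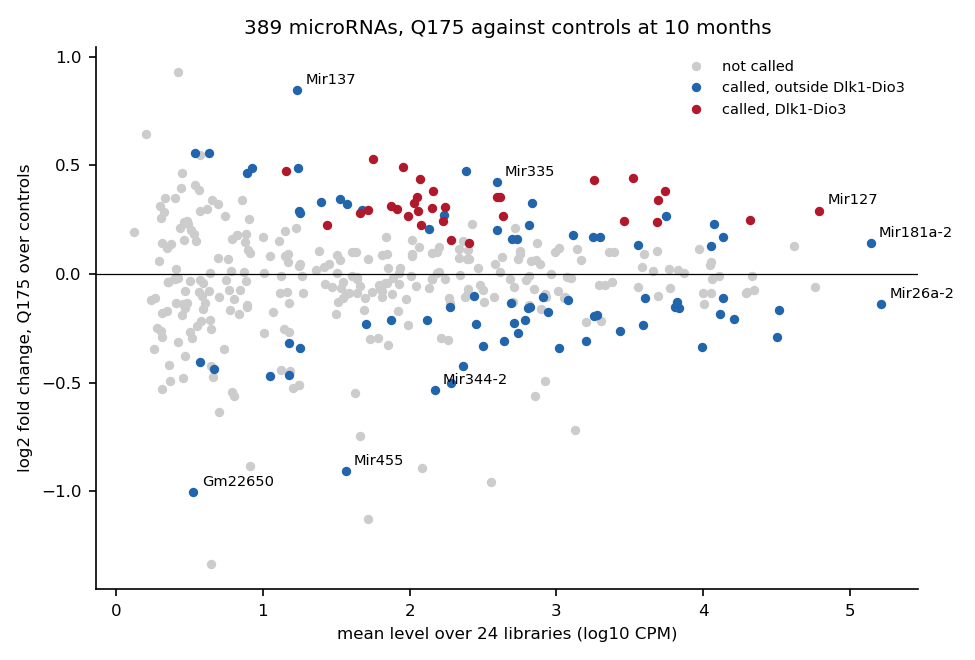
Log2 fold change of Q175 over controls (vertical) against the mean level over 24 libraries in log10 CPM (horizontal) for each of 389 microRNAs. Grey points were not called, blue points were called outside the Dlk1-Dio3 domain and red points were called within it. The red points, 31 in all, lie above 0 at every level, and Mir137 is the highest called point at 0.85.

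Outside the Dlk1-Dio3 domain 30 microRNAs rose. The largest rise was of Mir137, which is enriched in neurons and whose human locus has been associated with schizophrenia. Mir137 (chromosome 3, 118433857 to 118433929, GRCm38, in an exon of the noncoding gene Gm26871) was at 20.8, 25.8 and 26.4 CPM in Q175 libraries (lowest, median, highest), against 9.88, 12.5 and 18.97 CPM in control libraries. Every Q175 library lay above every control library. The log2 fold change was 0.85 ± 0.10 (SE, FDR = 6.46e-07), a rise of 79.8%. The next largest called rises were of Mir653 (0.56, FDR = 0.016) and Mir547 (0.56, FDR = 0.0454). The call of Mir547 was lost in 19 of the 24 fits that left out 1 library (FDR of up to 0.138). With the L field as a term both calls were lost (FDR = 0.0549 for Mir653 and 0.135 for Mir547).

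Mir335 lies in an intron of the imprinted gene Mest (chromosome 6, 30741299 to 30741396), which is expressed from the paternal allele. It had the lowest FDR of all microRNAs. Its levels were 451, 468 and 485 CPM in Q175 libraries, against 323, 355 and 372 CPM in control libraries, a log2 fold change of 0.42 ± 0.03 (FDR = 2.59e-10). Here again the groups did not overlap. A list of microRNAs of other imprinted loci had 6 tested members, of which Mir335 and Mir3099, in an intron of the paternally expressed Usp29, were called higher and none lower. The median over these 6 was 0.01, with the lowest at -0.49. Of all microRNAs tested 15.7% were called higher. Mir3099 was at 33.0, 38.5 and 45.5 CPM in Q175, against 25.6, 29.9 and 38.7 CPM in controls (0.35 ± 0.07), and 4 control libraries lay above the lowest Q175 library.

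Mir488, from an intron of Astn1, a gene of glial-guided migration of neurons, was at 261, 297 and 326 CPM in Q175 libraries, against 182, 204 and 270.0 CPM in control libraries (0.47 ± 0.07, FDR = 9.62e-06). Of the 8 Q175 libraries 7 lay above all controls. Mir218-2, from an intron of the axon guidance gene Slit3, was at 715, 755 and 885 CPM, against 484, 622 and 739 CPM in controls (0.32 ± 0.06, FDR = 0.000384). It shares a run of at least 18 nt with Mir218-1, so that reads of the 2 hairpins may have been divided between them. Mir218-1 was at -0.33 ± 0.24 and was not called. Mir1224, a microRNA released by splicing of an intron of Vwa5b2, was higher by 0.49 ± 0.12 (FDR = 0.00445), with 3 control libraries above the lowest Q175 library. In a list of neuronal microRNAs, which holds Mir137, these members, Mir128-2 and 5 called members of the Dlk1-Dio3 domain, 10 of 32 tested were called higher and 2 lower (Mir149 and Mir129-1), with a median of 0.07, against 15.7% higher and 11.6% lower over all microRNAs tested. The call of Mir128-2 (0.13 ± 0.04) was lost without Q175 library F2 or F4 (FDR of up to 0.0626) and with the choroid plexus score as a covariate (FDR = 0.0768). That of Mir433 was lost without Q175 library F4 or M1 (FDR of up to 0.0609). That of Mir129-1 (-0.15 ± 0.06) was lost without Q175 library F3, M2 or M3 or Q20 library F5, M1 or M3 (FDR of up to 0.0745), and with the L field as a term (FDR = 0.0618).

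**Figure D2:**
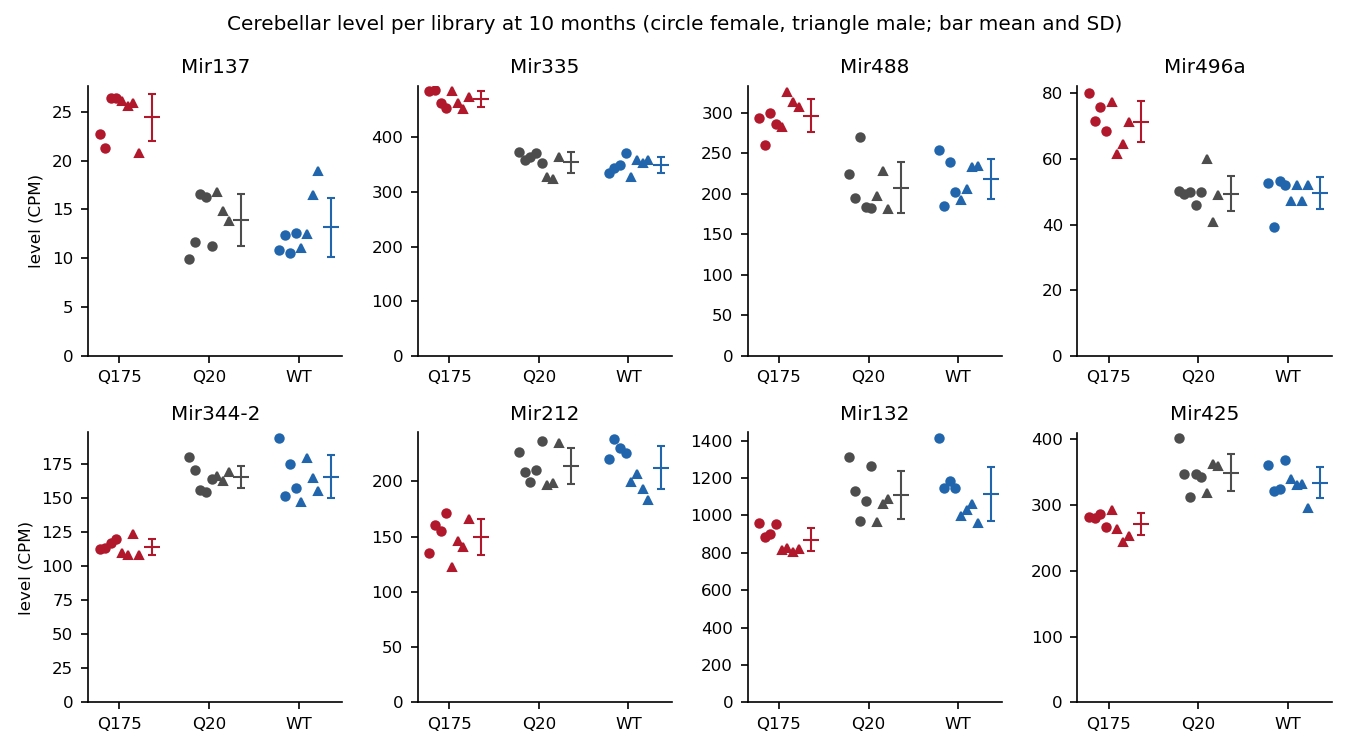
Level in CPM (vertical, from 0) in each library of Q175, Q20 and WT for 8 microRNAs; circles are females, triangles males, and the bar at the right of each group gives the mean and SD of 8 libraries. For Mir137, Mir335 and Mir496a all Q175 points lie above all controls, and for Mir344-2, Mir212 and Mir425 all lie below; for Mir488 and Mir132 1 control point reaches into the Q175 range.

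The 45 falls were led in strength by Mir344-2, one of a family of related hairpins spread over an imprinted region of chromosome 7 (61940027 to 61940106, in an intron of A330076H08Rik). It was at 108, 113 and 123 CPM in Q175 libraries, against 147, 164 and 194 CPM in control libraries, with no overlap. The log2 fold change was -0.53 ± 0.05 (FDR = 4.54e-09). Stretches of 18 nt or more recur in Mir344 and Mir344b, so that reads may have been divided among these hairpins. Of 3 tested members of the family Mir344-2 alone was called, and the median of the 3 was -0.44.

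Mir132 and Mir212 are transcribed together from chromosome 11 (75173388 to 75173747, in an intron of 1700016P03Rik) and are known to be induced by the transcription factor CREB and by neuronal activity. Both fell. Mir212 was at 123, 150.4 and 172 CPM in Q175 libraries, against 183, 209 and 238 CPM in control libraries, without overlap (-0.50 ± 0.05, FDR = 2.82e-07). Mir132 was at 803, 853 and 960 CPM in Q175 libraries, against 957, 1083 and 1413 CPM in control libraries (-0.34 ± 0.05, FDR = 6.15e-06), and 1 control library lay below the highest Q175 library. As shown above, their dominant 3p arms share the seed AACAGUC.

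Mir425 lies with Mir191 on chromosome 9 (108568777 to 108568861), in an exon of the noncoding 4833445I07Rik. It was at 244, 273 and 292 CPM in Q175 libraries, against 295, 341 and 402 CPM in control libraries, without overlap (-0.33 ± 0.05, FDR = 4.64e-06). Mir484 and Mir320 are known for precursors that carry a 5′ cap and do not need the nuclease Drosha. Mir484 was at 1227, 1349 and 1518 CPM in Q175 libraries and 1472, 1654 and 1989 CPM in control libraries (-0.31 ± 0.05, FDR = 4.45e-05). Mir320 was at 428, 481 and 530.1 CPM in Q175 libraries and 524, 585 and 699 CPM in control libraries (-0.27 ± 0.04, FDR = 9.62e-06). For each of this pair 6 of 8 Q175 libraries lay below all controls. These 2 were set side by side after their values had been seen.

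The largest falls by size were less uniform. Mir455, in an intron of the collagen gene Col27a1, was at 18.9, 22.3 and 30.9 CPM in Q175 libraries, against 27.2, 34.6 and 105 CPM in control libraries (-0.91 ± 0.25, FDR = 0.00746). Its control libraries Q20 F3, Q20 F5 and WT M1 were at 81.4, 79.2 and 105 CPM, and without WT M1 the log2 fold change was -0.73. Gm22650, in an intron of Htr2c, the serotonin receptor gene of choroid plexus, fell by 1.003 ± 0.37 on the log2 scale (FDR = 0.0446) at a level of only 0.937 to 4.68 CPM in Q175 libraries and 0.651 to 9.42 CPM in control libraries. The call was lost in 13 of the 24 fits that left out 1 library, namely Q175 F1, F2, F4, M2, M3 or M4, Q20 F2, F3, F4 or M3, or WT M1, M2 or M4 (FDR of up to 0.0959). It was also lost with a score of the choroid plexus list as a covariate (-0.44, FDR = 0.272). Mir1247, from Dio3os (chromosome 12, 110278048 to 110278129), beyond the array of microRNAs described next, fell by 0.47 ± 0.09 (FDR = 0.000335).

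The imprinted Dlk1-Dio3 domain on chromosome 12 carries one of the largest arrays of microRNAs in mammals, expressed from the maternal chromosome in brain. Of the 56 features of its array, taken by position, 45 were tested, and they span 184.2 kb from Mir770 to Mir3072. In Q175 cerebellum 31 of the 45 rose, none fell and 14 were not called, against 15.7% higher among all microRNAs tested. The median of the 45 was 0.29, against -0.05 over the 344 microRNAs outside the domain. The domain thus held 50.8% of all rises. For 13 of its members all 8 Q175 libraries lay above all 16 controls, against 15 of all 389 microRNAs tested (3.86%). The summed level of the 45 was 114349 to 140109 CPM in Q175 libraries (median 125213), against 94908 to 112111 CPM in control libraries (median 100867), so that not one control library reached the lowest Q175 library.

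The upstream part of the array runs from Mir770 to Mir370. It holds the microRNAs near Meg3 and Rtl1 and, farther on, Mir341 and Mir370, and 9 of its 13 tested members rose with a median of 0.29. The downstream part is the long Mirg array from Mir379 to Mir3072, where 22 of 32 rose with a median of 0.29. Mir127, which is antisense to Rtl1, was at 62957, 70324 and 80628 CPM in Q175 libraries, against 53748, 56981 and 62376 CPM in control libraries, without overlap (0.29 ± 0.04, FDR = 1.08e-06). The largest called rises within the array were of Mir496a (0.53 ± 0.06) and Mir154 (0.49 ± 0.06), neighbours within Mirg. Mir496a was at 61.6, 71.4 and 80.2 CPM in Q175 libraries, against 39.2, 49.9 and 60.1 CPM in control libraries. Mir154 was at 99.2, 109.0 and 132 CPM in Q175 libraries, against 68.8, 80.9 and 89.2 CPM in control libraries. Neither overlapped between the groups. The members did not rise alike. Mir134 (-0.04 ± 0.06), Mir382 (0.10 ± 0.05), Mir543 (0.09 ± 0.06) and Mir758 (-0.07 ± 0.09) lie between called members and were not called. A difference between them and their neighbours was not tested. The call of Mir666 (0.23 ± 0.07, FDR = 0.0253) was lost in 8 of the 24 fits that left out 1 library (FDR of up to 0.0849). With the L field as a term the calls of Mir666 (FDR = 0.14) and Mir434 (0.25 ± 0.07, FDR = 0.0889 with the term) were lost.

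**Figure D3:**
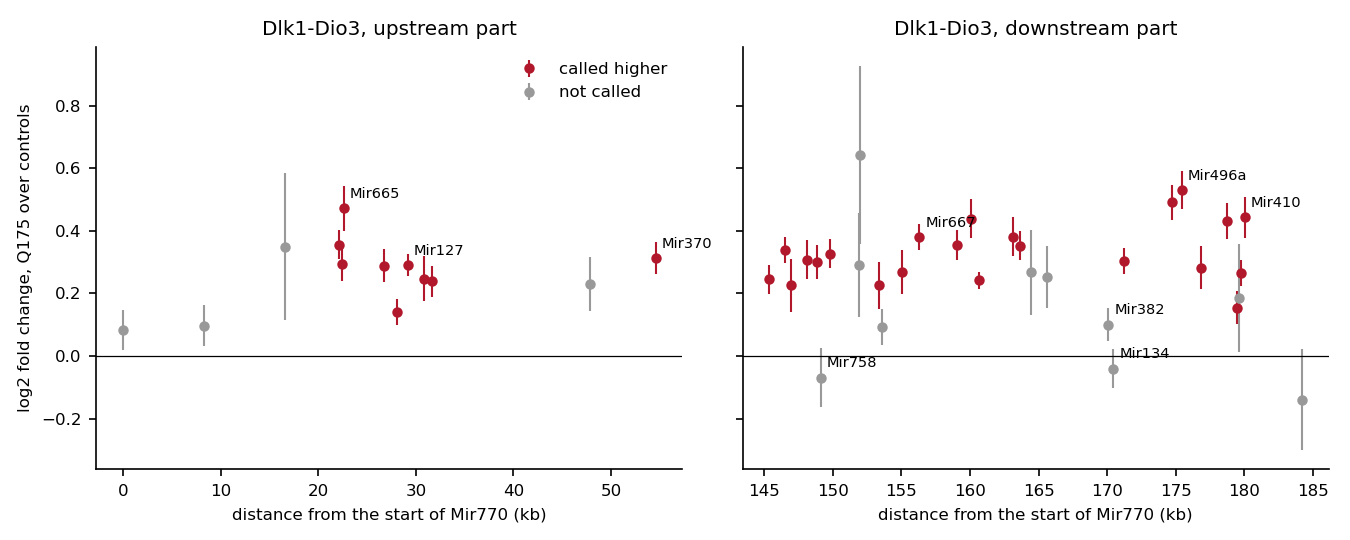
Log2 fold change of Q175 over controls (vertical, bars are SE) against the distance in kb from the start of Mir770 (horizontal) for 45 microRNAs, with the upstream part of the Dlk1-Dio3 array in the left panel and the downstream part in the right; red points were called higher and grey points were not called. Called points lie in both parts of the array, between 0.14 and 0.53, and Mir134, Mir382 and Mir758 lie near 0 among them.

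Of the 106 called features 13 lie across an annotated microRNA of the opposite strand that was not analysed here under its own name. These include the 5 minus-strand features of the Dlk1-Dio3 array, all called higher. Of these, the call of Mir299b (0.23 ± 0.08, FDR = 0.0488) was kept only in the fits without Q175 F3, Q20 M1 or M2, or WT F1 or F3 among the 24 that left out 1 library, and was lost in the other 19 (FDR of up to 0.173). That of Gm24321 (0.15 ± 0.05, FDR = 0.0325) was lost without Q175 F1, F2, F3, F4, M2, M3 or M4, Q20 F2 or F4, or WT F2, M1, M2 or M4 (FDR of up to 0.133). Both were lost with the L field as a term (FDR = 0.197 for Mir299b and 0.217 for Gm24321). Gm25252, opposite Mir376a, rose by 0.44 ± 0.06 (FDR = 7.36e-06), Gm25750, opposite Mir380, by 0.31 ± 0.06, and Mir3071, opposite Mir136, by 0.24 ± 0.05. On chromosome 9, Gm24083, opposite Mir191, was at 11038, 12048 and 12828 CPM in Q175 libraries and 12251, 13210.0 and 16742 CPM in control libraries and fell by 0.18 ± 0.05 (FDR = 0.0036). On chromosome 17, Gm25927, opposite Mirlet7e, fell by 0.19 ± 0.04 (FDR = 0.000677). The strand setting of the counting is not given in the sources used here, so that reads of these features and of the microRNAs opposite them cannot be told apart.

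Among neighbours made from a common precursor outside the domain, both members of 5 pairs were called in the same direction. Mir23b (-0.17 ± 0.03) and Mir27b (-0.21 ± 0.04) on chromosome 13, and Mir99b (-0.34 ± 0.12) and Mir125a (-0.29 ± 0.08) on chromosome 17, fell. The call of Mir99b was lost without Q175 library F1, F2, F4 or M1 (FDR of up to 0.0672). Mir16-1 (0.23 ± 0.04) and Mir15a (0.16 ± 0.04), from the Dleu2 gene on chromosome 14, rose, as did Mir181c (0.17 ± 0.04) and Mir181d (0.18 ± 0.05) on chromosome 8. Mir212 and Mir132 are the fifth pair. In a sixth, on chromosome 6, the neighbours were called in opposite directions, Mir29a lower (-0.11 ± 0.04, FDR = 0.0462) and Mir29b-1 higher (0.30 ± 0.11, FDR = 0.04). The call of Mir29a was lost without Q175 library F1, F3, F4 or M2, Q20 library F5, M1 or M3, or WT library F4 (FDR of up to 0.0838). That of Mir29b-1 was lost without Q175 library F2, F3, M1, M2, M3 or M4, Q20 library F2, F4, F5 or M1, or WT library F2, M1, M2 or M4 (FDR of up to 0.208). With the L field as a term both calls were lost (FDR = 0.137 for Mir29a and 0.167 for Mir29b-1). The ratio of this pair was not tested. The log2 ratio of Mir212 to Mir132 averaged -2.55 ± 0.16 (SD, n = 8) in Q175 libraries and -2.38 ± 0.12 (SD, n = 16) in control libraries, so that Mir212 fell by more than Mir132 (exact permutation test over the libraries, two-sided, p = 0.00852, adjusted over 5 pairs 0.0426). In the other 4 pairs called in 1 direction the ratio differed by -0.05 to 0.07 between the groups (exact permutation test, p = 0.115 to 0.854, adjusted 0.288 to 0.854). The pairs were picked after the calls had been seen.

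MicroRNAs with a common seed share most of their predicted targets. A mature form in RefSeq was available for 87 of the called microRNAs. The rest, Mir15a among them, could not be compared by seed, so that further shared seeds may have been missed. Among the available forms, 12 seeds were shared by at least 2 called microRNAs, 7 of them called in 1 direction and 5 in both. Of all 106 calls 61 were higher and 45 lower, and the count of 5 was not tested against that split. Both arms of each hairpin enter this count although reads were not separated by arm, so that the 12 are not independent: Mir107 with Mir103-2, and Mirlet7c-2 with Mir98, share a seed on either arm. The call of Mir103-2 (0.17, FDR = 0.04) was lost in 18 of the 24 fits that left out 1 library (FDR of up to 0.119). It was also lost with RLE scaling, with the L field as a term and with the choroid plexus score as a covariate. Mir130a rose (0.23 ± 0.04, FDR = 0.000335) and Mir130b fell (-0.47 ± 0.09, FDR = 0.00033). Mir130a was at 684, 722 and 763 CPM in Q175 libraries and 555, 621 and 750.4 CPM in control libraries, while Q175 libraries of Mir130b, at 7.42, 8.59 and 12.1 CPM in Q175 and 9.78, 12.4 and 15.4 CPM in controls, lay below most controls. Likewise Mir329 of the Dlk1-Dio3 array rose (0.33 ± 0.05, FDR = 4.64e-06) and Mir362, of a cluster in an intron of Clcn5, fell (-0.34 ± 0.07, FDR = 0.00036), both bearing the seed ACACACC. Of 10 let-7 microRNAs, whose family is known for restraining proliferation and promoting differentiation, Mirlet7c-2 rose (0.13 ± 0.03), Mirlet7i and Mir98 fell, and 7 were not called. The share called in the family was thus close to the 27.2% called over all microRNAs tested. The call of Mir98 was lost without Q20 library F5 or M3 or WT library F3 (FDR of up to 0.0563). It was also lost with the L field as a term (FDR = 0.137) and with the choroid plexus score as a covariate (FDR = 0.0768). Mirlet7i was at 5615, 5978 and 6472 CPM in Q175 libraries and 5956, 6623 and 7418 CPM in control libraries (-0.15 ± 0.03, FDR = 0.00147). The summed level of the 10 was 72441 to 85152 CPM in Q175 libraries and 68629 to 88839.9 CPM in control libraries, so that the sum overlapped widely.

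**Figure D4:**
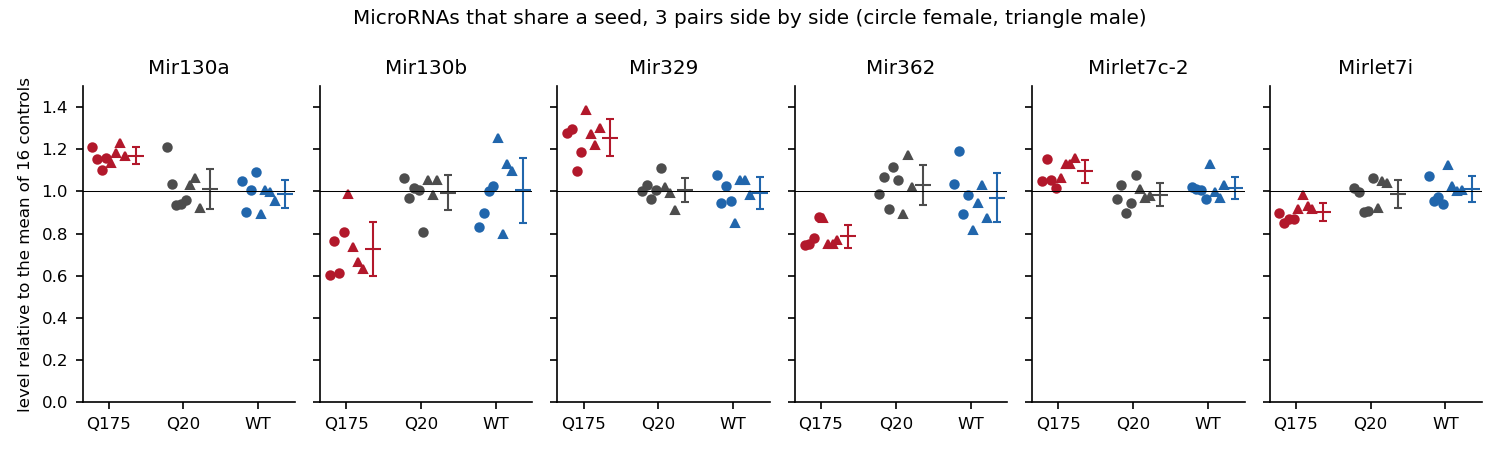
Level of 6 microRNAs in each library relative to the mean of the 16 control libraries (vertical, from 0) for Q175, Q20 and WT; neighbouring panels share a seed, circles are females, triangles are males, and bars give mean and SD. In each pair the Q175 points of the first microRNA lie mostly above 1 and those of the second mostly below it.

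Mir26a-2 and Mir181a-2 had the highest counts, unscaled for length. Mir26a-1 and Mir26a-2 share the mature form miR-26a-5p, and Mir181a-1 and Mir181a-2 share miR-181a-5p. Reads of these arms may have been divided between the hairpins, so that the levels and calls within each pair are not independent. Mir26a-2 was at 138717, 153470.0 and 158822 CPM in Q175 libraries and 149922, 167033 and 187548 CPM in control libraries (-0.14 ± 0.03, FDR = 0.00278), a fall of 9.11%. Mir181a-2 was at 139190.0, 144066 and 160013 CPM in Q175 libraries and 119831, 130932 and 151563 CPM in control libraries (0.14 ± 0.04, FDR = 0.0199). The call of Mir181a-2 was lost without Q175 library M2, M3 or M4, Q20 library M2, or WT library F2 or M2 (FDR of up to 0.0675), and with the L field as a term (FDR = 0.115). Among 6 miR-181 hairpins 4 were higher and none lower, with a median of 0.16. In the miR-26 family 2 of 3 were lower (median -0.14), in the clusters of miR-23, miR-24 and miR-27 3 of 5 (median -0.11), and in the miR-15/16 family 2 of 6 were higher (median 0.10). The miR-30 family had 1 of 6 lower (Mir30d, -0.17 ± 0.04, median -0.01). Over all microRNAs tested 15.7% were higher and 11.6% lower, and these families are small. The call of Mir26a-1 (-0.26 ± 0.09) was lost without Q175 library F1 (FDR = 0.0557) and with the L field as a term (FDR = 0.0508), and that of Mir24-2 (-0.11 ± 0.04) with that term (FDR = 0.0705).

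Markers of cells other than neurons were examined beside these results, and their counts stand against 15.7% called higher and 11.6% called lower over all microRNAs tested. Of 4 oligodendrocyte microRNAs, Mir219a-2 and Mir338, which promote the maturation of oligodendrocytes, fell by 0.31 ± 0.07 (FDR = 0.00111) and 0.23 ± 0.05 (FDR = 0.000887), and the median of the list was -0.27. The summed level of the list was 3833 to 4707 CPM in Q175 libraries, against 4327 to 5754 CPM in control libraries. Of 7 microRNAs of microglia and immune cells, Mir155, which is induced in inflammation, rose at a low level. It was at 6.39, 10.7 and 14.5 CPM in Q175 libraries and 4.88, 7.66 and 9.61 CPM in control libraries (0.49 ± 0.14, FDR = 0.0108). Mir21a fell by 0.19 ± 0.05, and the other 5 were not called, among them Mir142b at 0.11 ± 0.07 and Mir223 at 0.01 ± 0.15. Of 5 vascular microRNAs 2 were lower (Mir221, -0.22 ± 0.05, and Mir145a), and of 6 muscle microRNAs 2 (Mir133a-1, -0.42 ± 0.13, and Mir208a). The call of Mir145a was lost without Q175 library F1, F2, F4 or M4, Q20 library F5 or M1, or WT library F4 or M3 (FDR of up to 0.106). It was also lost with the choroid plexus score as a covariate (FDR = 0.0553). The call of Mir208a was lost without Q175 library F1, F2, F4 or M4, Q20 library F3 or M1, or WT library F4 (FDR of up to 0.0992).

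None of the 10 tested microRNAs of the choroid plexus list was called, but 9 of 10 were below 0 with a median of -0.55. Gm22650, called lower above and also in an intron of Htr2c, is not a member of the list. Mir448, for example, an intronic microRNA of Htr2c, was at -1.13 ± 0.66 (FDR = 0.232), and Mir34c at -0.56 ± 0.27 (FDR = 0.138). The sum of the list, dominated by Mir204, was 17095 to 23734 CPM in Q175 libraries and 16697 to 27616 CPM in control libraries. The sensory Mir183 cluster (median -0.72 over 3) and the Hox-linked microRNAs of hindbrain (median -0.31 over 3) were likewise not called. Nor were the miR-200 family (4 tested, median 0.04), the erythroid list (3, median -0.08) or the liver list (3, median -0.05). With a choroid plexus score as a covariate 54 microRNAs were higher and 43 lower, and Mir137 was at 0.84, Mir335 at 0.41, Mir212 at -0.54 and Mir344-2 at -0.56. The part of other cell types in the remaining results was not tested.

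The leading differences were also measured against each kind of control. Between Q20 and WT no microRNA was called by edgeR, with 16 (4.11%) at an unadjusted p under 0.05. Mir137, for example, was higher in Q175 by 0.90 against WT and 0.79 against Q20, Mir335 by 0.43 and 0.41, and Mir344-2 was at -0.54 and -0.53. A fit with WT alone as control called 78 microRNAs (43 higher, 35 lower), and one with Q20 alone called 98 (55 higher, 43 lower). No microRNA was called by edgeR for a difference in response between the sexes (0, with 7 at an unadjusted p under 0.05, 1.8%). The log2 fold change of Mir137 was 0.96 ± 0.14 in females and 0.72 ± 0.15 in males, that of Mir127 was 0.36 ± 0.05 and 0.22 ± 0.05, and that of Mir212 was -0.51 ± 0.08 and -0.49 ± 0.08. Within the 12 libraries of L5 the log2 fold change of Mir137 was 0.83 ± 0.14, that of Mir335 0.45 ± 0.04, that of Mir212 -0.50 ± 0.08 and that of Mir344-2 -0.61 ± 0.05 (FDR of 5.73e-05 to 0.00201), so that the sizes were close to those over all 24.

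The response of Q175 at 10 months was set against that at younger ages in one fit of 160 libraries. The p-values of that fit rest on the spread within every line and age. At 2 months no microRNA was called in Q175 against Q20 and WT, with 19 (4.88%) at an unadjusted p under 0.05. The difference between 10 and 2 months was itself called for 58 microRNAs (14.9%), 33 in the upward (8.48%) and 25 in the downward direction (6.43%). Mir212 was at 0.05 at 2 months and -0.52 at 10 months, a change of -0.57 ± 0.09 (FDR = 2.08e-07), and Mir154 was at -0.01 and 0.48, a change of 0.48 ± 0.08 (FDR = 4.84e-07). Mir344-2 (-0.10 and -0.55) and Mir132 (0.00 and -0.36) changed likewise, with FDR = 6.21e-09 and 8.97e-06. At 6 months Q175 was set against WT only. By their names, the Q175 and WT libraries of that age belong to another library series than all those of 2 and 10 months and than the Q20 libraries of 6 months, so that age and library series cannot be told apart between 6 months and the other ages. Within the 6-month series 84 microRNAs were called (21.6%), 51 higher (13.1%) and 33 lower (8.48%). Between 6 and 10 months, each against WT, none was called, with 30 (7.71%) at an unadjusted p under 0.05. Over the 61 microRNAs that rose at 10 months, the median log2 fold change was 0.05 at 2 months and 0.20 at 6 months, and over the 45 that fell it was -0.01 and -0.17, against 0.29 and -0.22 at 10 months. The microRNAs were chosen at 10 months, so that a larger value at that age follows in part from the choice.

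**Figure D5:**
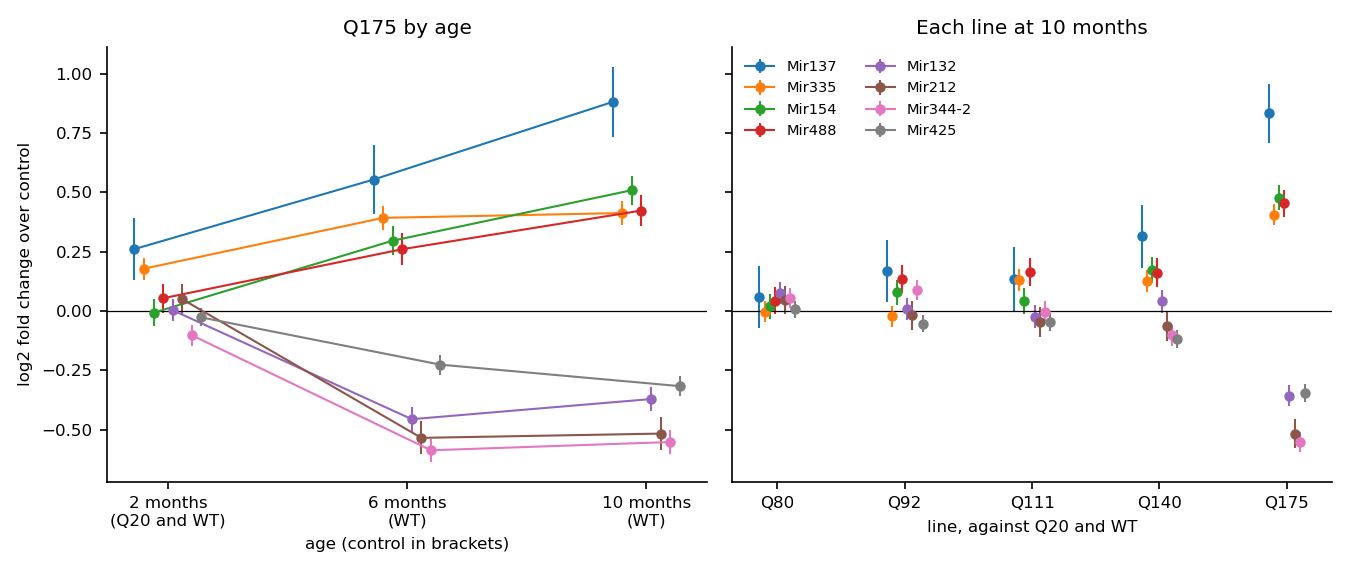
Log2 fold change over controls (vertical, bars are SE) of 8 microRNAs, for Q175 at 2, 6 and 10 months with the control named under each age (left) and for 5 lines against Q20 and WT at 10 months (right). At 2 months the points lie between -0.10 and 0.26, and at 10 months the points of Q175 lie farther from 0 than those of the other lines.

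Q140 shares its origin with Q175 and has the next shorter repeat. Q175 was tested directly against Q140 at 10 months (8 and 7 libraries) within the fit of 160 libraries, which also set the spread. This test called 65 microRNAs (16.7%), 39 higher (10%) and 26 lower (6.68%). The strongest were Mir344-2 (-0.45 ± 0.05, FDR = 1.24e-12), Mir132 (-0.40 ± 0.05, FDR = 2.28e-09) and Mir212 (-0.45 ± 0.07, FDR = 4.79e-07). Mir132 was at 0.04 and Mir212 at -0.06 in Q140 against controls, neither of them called. Mir335 (0.28 ± 0.05) and Mir127 (0.24 ± 0.04) were higher in Q175 than in Q140, too. Some microRNAs of the Dlk1-Dio3 array were called in Q140 as well, at a smaller size. In the same fit Mir487b was at 0.34 in Q175 and 0.19 in Q140 (difference 0.15 ± 0.04, FDR = 0.00795), and Mir337 was at 0.34 in Q175 and 0.18 in Q140 (difference 0.16 ± 0.05, FDR = 0.0133). The oligodendrocyte microRNA Mir338 was at -0.25 in Q175 and -0.20 in Q140, and their difference of -0.05 ± 0.06 was not called (FDR = 0.74). Against controls 33 microRNAs were called in Q140 (8.48%), 19 higher (4.88%) and 14 lower (3.6%), with 77 (19.8%) at an unadjusted p under 0.05. In Q111 and in Q92 none was called, with 31 (7.97%) and 22 (5.66%) at an unadjusted p under 0.05, and in Q80 7 were called, all higher (1.8%), with 44 (11.3%) at that limit. The comparisons of Q175 and of the other lines use the same 16 control libraries. Over the 61 rises the median was 0.01 in Q80, 0.03 in Q92, 0.05 in Q111 and 0.11 in Q140 at the same age, against 0.29 in Q175, whose libraries had chosen them.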

How the data were processed

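Cerebellar small RNA of 166 mice was sequenced by the authors as strand-specific, single-end reads. By the paper's methods, STAR placed the clipped reads on mm10 and HTSeq did the counting; CASAVA 1.8.2 stands in the submitters' processing notes. The deposited count table holds expected counts (estimated counts) per microRNA transcript, some of them fractional by a step not given in the sources used here, and they were rounded to whole numbers. A deposited RPKM table served as an alternative only (log2(RPKM + 1), limma 3.58.1).

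Symbols, positions and hosts came from GENCODE M21 (GRCm38), which matched 1228 of 1626 features; the other 398 held 0.600% of all counts. Of the 106 called, 87 had a mature sequence in RefSeq, and 21 have 18 nt or more in common with some other feature. Mir16-1, Mirlet7c-2, Mir128-2, Mir129-1, Mir219a-2, Mir29b-1 and Mir103-2 each have a mature form in common with another tested hairpin. Reads of that form may have been divided between the hairpins.

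Tests used edgeR 4.0.16 (TMM, filterByExpr, quasi-likelihood, two-sided) in R 4.3.3 with sex as a covariate, 24 libraries in the main comparison and 160 in the fit of all ages and lines, where 6 with Z.k below -5 were left out. Errors beside log2 fold changes are standard errors. Alternatives were DESeq2 1.42.0, other scalings, filters, controls, covariates and each library left out. The members, lists and tests were chosen with earlier results of these data known. The rules for naming took the 15 largest rises and falls, called microRNAs above 1000 CPM, called list members and the strongest calls of the other tests. The 93 called microRNAs so picked are termed named below, though not all of them are described in the text. Some others are described as well. On counts simulated for the main comparison (389 microRNAs, 50 changed at each fold and 189 unchanged), the test called 86% of those changed 1.3-fold and 36% of those changed 1.15-fold. No pair of libraries within a group looked like 1 library deposited again (84 pairs, lowest chi-square per degree of freedom 27.4).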

Additional observations from a re-analysis of the deposited data

Results flagged for a closer look

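Among the 93 named microRNAs the 3 groups of 8 libraries gave 279 groups to examine for a single library far from the other 7, by Dixon's criterion at the 95% level. It marked 29, where about 1 in 20, or 13.9, would be marked by chance. WT library M1 accounted for 10 of them. It was highest in its group for Mir1224 (24.85 CPM), Mir455 (105.3), Mir27b (19290), Mirlet7c-2 (12300), Mir328 (1470), Gm24083 (16740) and Mir98 (669.5), and lowest for Gm25252 (70.2), Mir3071 (3855) and Mir369 (336). Without it 106 microRNAs were called, 55 higher and 51 lower, of which 98 were among the 106 called with it.

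In Q175 the highest library stood apart for Gm22650 (F3, 4.679 CPM), Mir338 (M1, 3999), Mir411 (F1, 6686), Mir30d (F2, 33220), Mir666 (M2, 155.6), Mir495 (F2, 136.1), Mir667 (F2, 193.8), Mir369 (M4, 519.6) and Mir29b-1 (F3, 80.15). In Q20 the lowest stood apart for Mir130b (F5, 9.894), Mir3071 (F5, 3492), Mir1982 (F4, 3.177), Mir92b (F4, 6329) and Mir129-1 (F3, 548.4). In the other WT libraries the marked values were Mir653 (F1, 7.162), Mir547 (F1, 6.077) and Mir338 (F4, 4546), all highest, and Mir496a (F2, 39.15) and Mir208a (F3, 2.459), both lowest.

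The response of Q175 differed between 10 and 2 months for 58 microRNAs by edgeR. The 10 with the lowest p-values had log2 differences of -0.4497 (Mir344-2), -0.5657 (Mir212), 0.4838 (Mir154), -0.318 (Mir425), 0.2818 (Mir411), -0.3598 (Mir132), 0.2703 (Mir127), 0.3144 (Mir337), 0.3723 (Gm25252) and 0.4006 (Mir488).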

How the results depend on the processing

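The count of 106 called microRNAs was 92 to 111 when each of the 24 libraries was left out in turn, with 89 to 105 shared. Of 20 other alternatives, 17 called 78 to 115. These include a fit with all 24 libraries kept, which repeats the main fit, since none had been left out of it. The other 3 used fewer libraries: L5 alone called 57 (56 shared), females alone 54 and males alone 43. Of the other comparisons 5 were rerun with all libraries kept, a mean count of at least 100 or RLE scaling: 10 against 2 months called 54 to 59 (58 as reported) and Q175 against Q140 56 to 64 (65 as reported), while Q20 against WT, the response by sex and 10 against 6 months called 0 each time. Keeping all libraries could not change Q20 against WT or the response by sex, since no 10-month library had been left out. The remaining comparisons by age and line were not rerun. With the replicate number as a block 64 were higher and 42 lower, 106 in all and 99 shared. Same-numbered libraries deviated together only weakly (22 pairs, correlation -0.31 to 0.37, median 0.09), so that the numbers were not taken as a pairing. DESeq2 called 59 higher and 50 lower, and limma on RPKM 68 and 47. A mean count of at least 100 turned the split to 48 higher and 56 lower. No sign of the 93 named microRNAs reversed; 72 were called in every fit without 1 library, and 29 under every alternative that tested them. At this depth, changes of 1.3-fold, 1.6-fold and 2-fold were called in 86%, 84% and 90% of simulated cases, so that changes of each size can be missed, and 11 of 189 unchanged microRNAs (5.82%) were called. With 50 microRNAs changed at each fold, the simulation held more large changes than were called in the data. The adjustment of p then calls a larger share, so that these rates may be too high for the data.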
